A study of Mus musculus with 7 samples.

Results

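The 9 genes described here encode parts of the cytotoxic programme of T cells and natural killer (NK) cells: the granzymes Gzmk, Gzma and Gzmb, the pore-forming protein Prf1, the granule proteins Nkg7 and Ctsw, the secreted factors Ccl5 and Ifng, and the transcription factor Eomes. They were chosen by name with measured levels of these libraries already known, and all 9 were found among the 27998 features of the deposited matrices. The levels by class and age below therefore describe the genes and were not tested. The libraries came from the stromal vascular fraction, the cells left after collagenase digestion and loss of the adipocytes, of inguinal subcutaneous fat of female C57BL/6N mice with no treatment or transgene named. They are 3 old libraries (mice of 18 months) and 4 young libraries (11 to 12 weeks), each a 10x Genomics 3′ v3 single-cell RNA library in which transcripts are counted by unique molecular identifiers (UMIs). Whether 1 mouse or several went into a library is not stated.

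Cytotoxic lymphocytes kill by releasing granules at the contact with a target cell: perforin opens the membrane and granzymes, which are serine proteases, enter and cleave proteins inside. Granzyme B cleaves after aspartate and activates caspases, whereas granzymes A and K cleave after basic residues and are also known for effects on inflammation outside the target cell. Eomes, a T-box factor, is needed for NK cell maturation and for memory CD8 T cells, and granzyme K marks a T cell state that accumulates in tissues of aged mice.

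Gzmk and Gzma lie on the same strand of chromosome 13, with Gzmk at chr13:113171608-113225908 and Gzma at chr13:113093825-113100981 (GRCm38, minus strand, GENCODE M21), 70.6 kb apart, and Gzmb lies alone of the 3 on chromosome 14 (chr14:56258838-56262260, minus strand). Because the results below set these 3 granzymes against each other, their promoters are shown, as 300 bases around the RefSeq start site of GRCm38.p6 on the minus strand, read 5′ to 3′ (chr13:113180916-113181215, chr13:113100932-113101231 and chr14:56262285-56262584). Capitals mark 2 motifs searched on both strands, the T-box core AGGTGT or ACACCT and the RUNX core TGTGGT or ACCACA.
Gzmk: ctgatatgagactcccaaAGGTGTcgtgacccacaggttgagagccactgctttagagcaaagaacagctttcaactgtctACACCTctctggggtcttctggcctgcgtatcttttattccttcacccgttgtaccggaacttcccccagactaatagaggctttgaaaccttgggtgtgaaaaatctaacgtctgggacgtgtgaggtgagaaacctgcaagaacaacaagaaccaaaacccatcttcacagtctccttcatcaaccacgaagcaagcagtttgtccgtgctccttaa
Gzma: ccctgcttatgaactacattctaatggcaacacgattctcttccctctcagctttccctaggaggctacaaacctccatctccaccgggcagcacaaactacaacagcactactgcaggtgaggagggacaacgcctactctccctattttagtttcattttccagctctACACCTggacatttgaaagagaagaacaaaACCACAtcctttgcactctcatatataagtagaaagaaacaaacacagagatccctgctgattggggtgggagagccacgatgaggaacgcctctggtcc
Gzmb: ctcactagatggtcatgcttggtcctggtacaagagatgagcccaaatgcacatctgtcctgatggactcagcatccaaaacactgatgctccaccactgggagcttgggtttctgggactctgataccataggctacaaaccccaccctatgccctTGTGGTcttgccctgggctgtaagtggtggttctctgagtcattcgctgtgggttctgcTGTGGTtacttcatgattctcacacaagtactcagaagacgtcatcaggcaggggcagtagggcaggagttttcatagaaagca
The Gzmk window held 2 T-box matches, beginning at -232 and -169 from the start site, and no RUNX match. The Gzma window held 1 T-box match at -80 and 1 RUNX match at -50, and the Gzmb window held 2 RUNX matches at -93 and -34 and no T-box match. Of 32851 mouse promoter windows of the same length, 13.7% held the T-box core and 16.8% the RUNX core, so that matches of this kind are common. The RefSeq start of Gzmk lies inside the longer GENCODE span of the gene. RefSeq promoters were matched for 7 of the 9 genes, all but Ccl5 and Ctsw.

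The 7 libraries held 52336665 to 99516882 UMIs, and 37372 cells passed filtering, of which 5024 were T, NK or innate-like lymphocytes in a class. These numbered 1104, 1227 and 1347 in old replicates 1 to 3, against 96, 440, 363 and 447 in young replicates 1 to 4. Lymphocytes were split into 23 sub-clusters with the 9 genes left out of the clustering genes, and classes were named "like" from marker genes, under thresholds set after the clusters were seen: CD8 T-like (1118 old and 72 young cells), conventional non-naive CD4 T-like (663 and 61), naive T-like (587 and 633), NK-like (261 and 285), and the innate-like lymphocytes, which are Cd163l1 T-like (150 and 106) and ST2-like (77 and 48). The classes are called CD8, CD4, naive, NK, Cd163l1 and ST2 cells below. Their defining markers were in place: Cd8a stood at 432 CPM (UMIs of a gene scaled to a common total per sum) and Cd4 at 0 CPM in CD8 cells, where Cd4 detection was used to exclude, Ncr1 stood at 382 CPM in NK cells against 1.58 CPM in CD8 cells, Cd163l1 at 874 CPM in Cd163l1 cells and Il1rl1 (ST2) at 793 CPM in ST2 cells. A further 529 old and 93 young non-naive T cells without a clear Cd8 or Cd4 signal are called undetermined. CD8 cells numbered 491, 344 and 283 in the old libraries but only 10, 38, 9 and 15 in the young ones, and those of young libraries came mostly from another sub-cluster (number 15). The old libraries also differed among themselves: sub-cluster 4 was held almost whole by old replicate 3 and sub-cluster 14 by old replicate 1. Pairs of libraries shared 4 to 23 cell barcodes.

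Across classes the 9 genes fell into different patterns. Gzmk, a tryptase-like granzyme, was a T cell transcript: it reached 123, 219 and 317 CPM in CD8 cells of old replicates 1 to 3 and 109, 35.9 and 99.8 CPM in their CD4 cells, but 18.2, 0 and 11.1 CPM in their NK cells. In young libraries Gzmk stood at 83.9, 30.5, 53.4 and 42.9 CPM in CD8 cells, 16.7, 0, 0 and 0 CPM in CD4 cells and 15.1, 2.66, 0 and 0 CPM in NK cells. Of these 3 classes CD8 cells were highest in every library, with the smallest gap to CD4 cells in old replicate 1, where undetermined T cells stood higher still at 173 CPM, while young CD4 and NK cells overlapped and did not differ beyond their spread. Gzmk was at 0 in the Cd163l1 cells of all 7 libraries, and its 8 UMIs in ST2 cells came from 1 cell of old replicate 1.

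Gzma, also tryptase-like, Gzmb and Prf1 had the opposite order and peaked in NK cells. Gzma stood at 3659, 3784 and 7410 CPM in NK cells of old libraries and 11091, 5349, 4842 and 4950 CPM in those of young libraries, against at most 1291 CPM in any CD8 sum and 6.69 CPM in any CD4 sum. Prf1 stood at 195, 137 and 84.6 CPM in old NK cells and 174, 104, 191 and 128 CPM in young NK cells, and at no more than 33.5 CPM in any CD8 sum. Gzmb was at 436, 429 and 949 CPM in old NK cells and 2708, 811, 746 and 750 CPM in young NK cells, so that the NK range overlapped only the highest CD8 sums, 552 CPM in old replicate 3 and 804 CPM in young replicate 4.

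Eomes was shared by NK and CD8 cells. In NK cells it stood at 336, 300 and 234 CPM in old libraries and 257, 329, 349 and 239 CPM in young libraries, which overlap fully. Ccl5, a chemokine that draws T cells and monocytes, Nkg7, a granule membrane protein needed for degranulation, and Ctsw, a cathepsin of cytotoxic cells, were high in both CD8 and NK cells and lower but present in CD4 and naive cells. Ccl5 ranged from 8521 to 17612 CPM in CD8 cells of old libraries and from 8234 to 14591 CPM in those of young libraries. Ifng, the cytokine that activates macrophages, was at overlapping levels in CD8, CD4 and NK cells, from 63.9 to 753 CPM over all their sums.

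**Figure D1:**
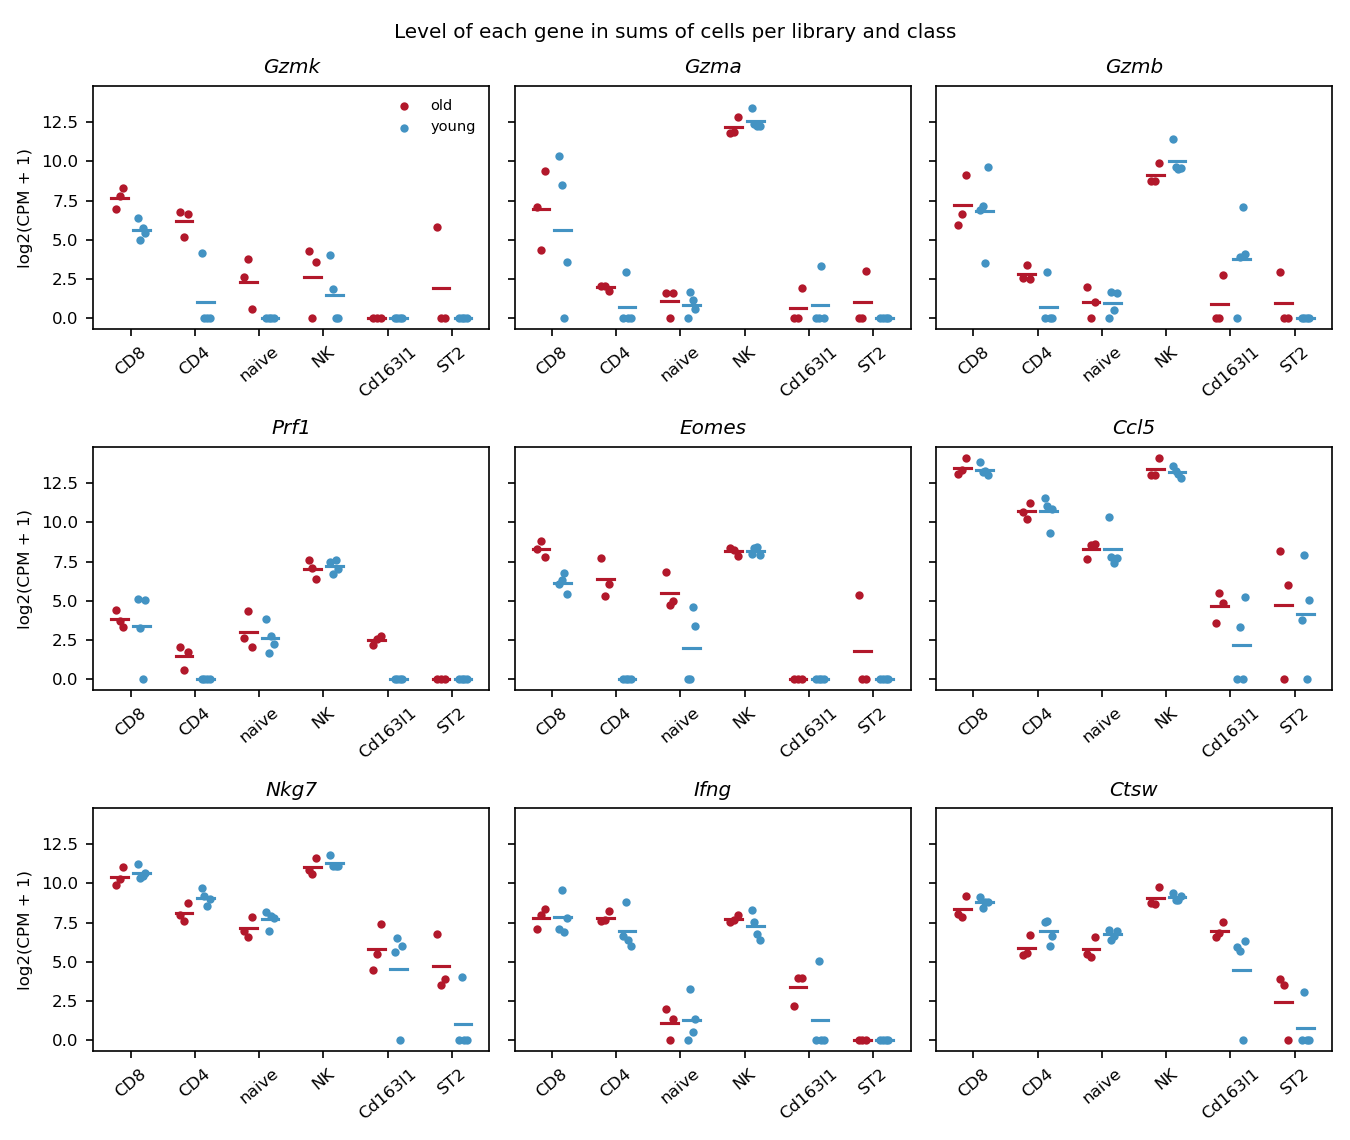
Level of each of the 9 genes as log2(CPM + 1) in the summed UMIs of each lymphocyte class, 1 point per library, with old libraries (n = 3) left of young libraries (n = 4) and bars at the mean. Gzmk points lie high in CD8 cells and in old CD4 cells, whereas Gzma, Gzmb and Prf1 points lie highest in NK cells.

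In CD8 cells, Gzmk averaged 220 ± 96.7 CPM in old libraries (SD, n = 3) and 52.7 ± 22.8 CPM in young libraries (SD, n = 4), a fitted log2 fold change of 2.41 ± 0.50 (SE, edgeR quasi-likelihood, old over young). Eomes averaged 326 ± 118 CPM in old libraries and 73.8 ± 26.5 CPM in young libraries, a fitted log2 fold change of 2.38 ± 0.41. For both genes the lowest old library lay above the highest young library, at 123 against 83.9 CPM for Gzmk and 217 against 107 CPM for Eomes. They were the 2 of the 9 genes that did so, where 5.52% of the 7359 genes tested in CD8 cells had every old library above every young library, 5.88% had every old library below and 0.0679% passed at an adjusted p of 0.05. Since the genes were chosen on such values, nothing is read from this count. The fit used young replicates 1, 2 and 4, as young replicate 3 held 9 CD8 cells, and the young Gzmk values rest on 5, 7, 5 and 4 UMIs.

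The same order held in the share of CD8 cells in which each gene was found after every cell was reduced to 2000 UMIs. Gzmk was detected in 20.2%, 30.7% and 35.9% of CD8 cells of old replicates 1 to 3, against 10.0%, 2.63%, 11.1% and 0% in young replicates 1 to 4. Before the reduction the mean shares were 51.1% in old and 16.7% in young libraries. Pooled over libraries these were 300 of 1097 old cells (27.3%, exact 95% interval 24.7 to 30.1%) and 3 of 72 young cells (4.17%, 0.868 to 11.7%), with intervals that cover counting error only. Eomes was detected in 38.1%, 44.5% and 28.9% of old CD8 cells, against 10.0%, 13.2%, 22.2% and 6.67% of young CD8 cells. In progenitors, which should lack these genes, Gzmk was found in 0.137% of old and 0% of young cells at the same depth, and Eomes in 0.206% and 0.0418%. Progenitors had a median of 11200 UMIs in old and 17440 UMIs in young libraries, against 6140 and 5736 UMIs in CD8 cells.

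**Figure D2:**
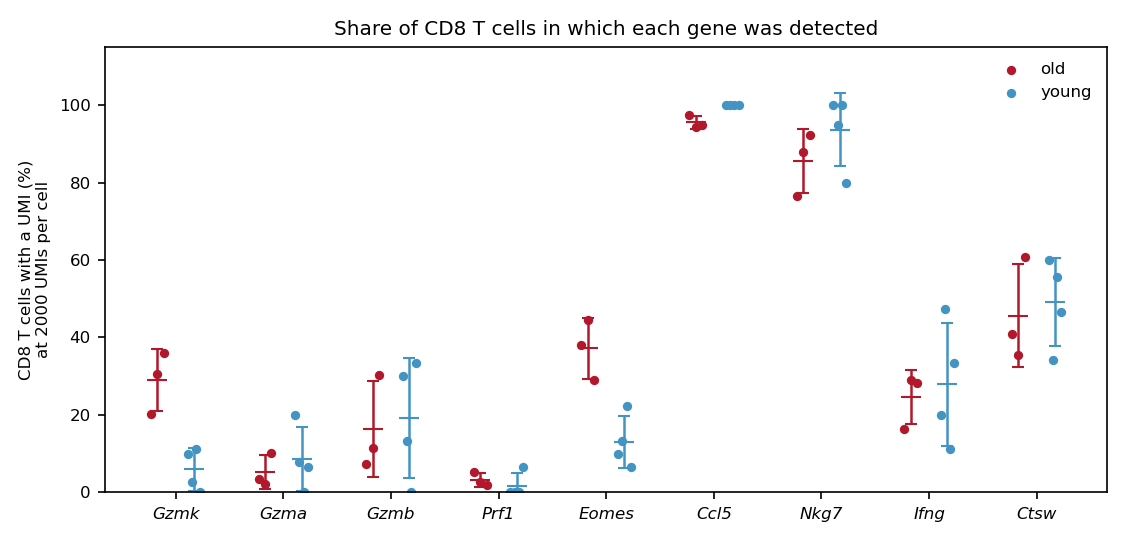
Percent of CD8 cells with a UMI of each gene after reduction to 2000 UMIs per cell, 1 point per library, old libraries (n = 3) left of young libraries (n = 4), with mean and SD. Gzmk and Eomes shares of old libraries lie above all young libraries, Ccl5 lies near 100% at both ages and the other genes overlap.

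As a description, since the genes were chosen on these values, the CD8 fit was repeated without single libraries and without sub-cluster 14. The fitted log2 fold change of Gzmk was 2.64 without old replicate 1, 1.99 without old replicate 3 and 2.45 without sub-cluster 14. That of Eomes was 2.38, 2.53 and 2.42. Without young replicates 1, 2 and 4 the values were 2.80, 2.14 and 2.41 for Gzmk and 2.41, 2.84 and 2.215 for Eomes. After reduction to 2000 UMIs per cell the Gzmk value was 3.96, where the young sums held very few Gzmk UMIs. Over all non-naive T cells together, CD8, CD4 and undetermined, every library held at least 31 cells, and Gzmk stood at 128, 125 and 223 CPM in old libraries, against 28.9, 11.0, 16.6 and 11.9 CPM in young libraries. Every old library was above every young library again, with a fitted log2 fold change of 3.42 ± 0.40 for Gzmk and 2.61 ± 0.37 for Eomes, in a fit where 3.11% of 6456 genes had all old above all young libraries and 0.155% passed. The makeup of these sums moved with age. Undetermined cells were 17.3 to 29.9% of them in old and 38.2 to 51.6% in young libraries, where they held 0 Gzmk UMIs. The part of this makeup in the fold changes was not tested.

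The other 7 genes overlapped between old and young CD8 cells. Gzma stood at 135, 19.3 and 662 CPM in old libraries, against 1291, 361, 0 and 10.7 CPM in young libraries, and Gzmb at 59.3, 101.2 and 552 CPM against 117, 139, 10.7 and 804 CPM. Each age thus held libraries with much and with little of both genes, and the fitted log2 fold changes were -0.71 ± 0.89 and -0.37 ± 0.70. Without old replicate 3, the old library with most Gzma and Gzmb, they were -2.62 and -2.09, without young replicate 1 that of Gzma was 0.58, and without young replicate 4 that of Gzmb was 1.06. The log2 fold changes of the other 5 genes were 0.33 ± 0.29 for Ccl5, -0.16 ± 0.34 for Nkg7, -0.14 ± 0.39 for Ctsw, -0.35 ± 0.70 for Prf1 and -0.65 ± 0.48 for Ifng. These too turned on single libraries: without old replicate 3 Ccl5 was at -0.20, Nkg7 at -0.70, Ctsw at -0.80 and Ifng at -1.11. Ifng was at 0.64 and Prf1 at -0.96 without young replicate 2, Prf1 at 0.06 without young replicate 4, and Nkg7 at 0.14 and Ctsw at 0.07 without young replicate 1. NK marker genes in these CD8 sums stood at 266.5 to 356 CPM over 11 markers in old libraries (8 to 10 detected) and 335 to 1901 CPM in young libraries (4 to 7 detected). The 2 ranges overlapped, and the part of these markers in the Gzma and Gzmb values was not tested.

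Within the CD8 class the genes separated by sub-cluster. Sub-cluster 0, with 444 old and 13 young cells, held Gzmk at 259 CPM and the most Eomes at 608 CPM, beside Tox, a transcription factor of chronically stimulated T cells, at 305 CPM. Sub-cluster 4, with 185 old cells and 1 young cell, held the most Gzmk at 430 CPM, with Eomes at 332 CPM. Sub-cluster 17, with 83 old cells of which 79 came from old replicate 3, was rich in Itgae, an integrin of tissue-resident T cells, at 347 CPM. It held Gzma at 1946 CPM and Gzmb at 1313 CPM with Eomes at 16.8 CPM, beside Fcer1g, a top gene of the main NK sub-cluster, at 280 CPM. High Itgae did not always go with high Gzma and Gzmb. Sub-cluster 12, with 181 CD8 cells, held Itgae at 313 CPM but Gzma at 265 CPM, Gzmb at 161 CPM and Gzmk at 124 CPM. The highest Gzma and Gzmb and the highest Eomes thus lay in different sub-clusters. The young sub-cluster 15, with 3 old and 47 young CD8 cells, had Gzmk at 36.8 CPM and Eomes at 49.1 CPM but Gzma at 494 CPM and Gzmb at 224 CPM. Sub-cluster 14 held Gzmk at 4.08 CPM, the lowest of the 7, with Eomes at 170 CPM. These sums pool the libraries and their cells are not replicates.

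Inside sub-cluster 0, where both ages were present, Gzmk stood at 262 CPM (exact Poisson 95% interval 242 to 283) in 444 old cells and 162 CPM (83.9 to 284) in 13 young cells, so the intervals overlapped. Eomes stood at 618 CPM (588 to 650) in the old cells and 257 CPM (155 to 402) in the young cells. The share of CD8 cells in sub-cluster 0 was 37.3%, 75.6% and 0.353% in old replicates 1 to 3, with 65.4% of those of old replicate 3 in sub-cluster 4, against 0%, 23.7%, 33.3% and 6.67% in young replicates 1 to 4.

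**Figure D3:**
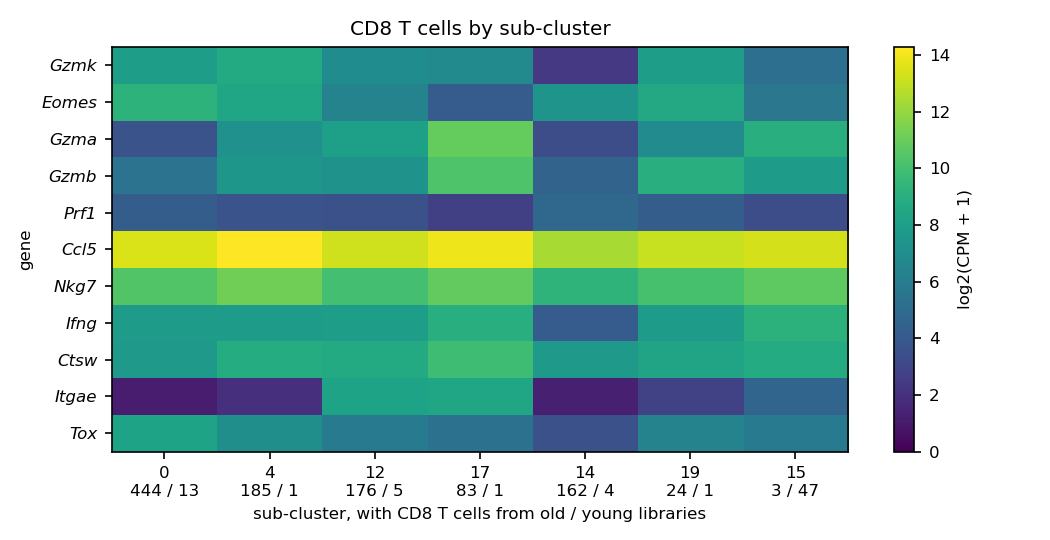
Level as log2(CPM + 1) of the 9 genes, Itgae and Tox in CD8 cells pooled by sub-cluster, with the number of old and young cells under each. Gzmk and Eomes are high in sub-clusters 0 and 4, Gzma and Gzmb in sub-cluster 17.

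CD4 cells carried Gzmk and Eomes in old libraries with almost no other granzyme. Gzmk had 68, 69 and 84 UMIs in CD4 cells of old replicates 1 to 3 (109, 35.9 and 99.8 CPM), against 1, 0, 0 and 0 UMIs in young replicates 1 to 4. Pooled, this was 65.3 CPM in old and 2.73 CPM in young CD4 cells, a ratio of 23.9 with an exact 95% counting interval of 4.25 to 949. Eomes stood at 207, 38.5 and 66.5 CPM in old CD4 cells and had no UMI in the 61 young ones. The pooled old value was 9.35-fold a floor of 3 counts over the young group. The exact 95% counting interval of the ratio of old to young cells begins lower, at 7.55. Old replicate 1 was well above the other old libraries. Nkg7 ran the other way, at 247, 190 and 422 CPM in old CD4 cells and 816, 582, 377 and 502 CPM in young ones, with old replicate 3 above young replicate 3. The fit, which used young replicates 2 and 4, tested 6 of the 9 genes. Among them 2 had every old library above both young ones, Gzmk and Eomes, beside 13.3% of the 6743 genes tested, and 1, Nkg7, had every old library below both, beside 12.9%.

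NK cells showed no such split between the ages. Of the 8 genes tested there, 0 had all old libraries above or below all young libraries, beside 2.79% and 3.37% of 6056 genes, and 0 genes of all passed (280 had an unadjusted p under 0.05 and DESeq2 called 1). The fitted log2 fold changes were -0.37 ± 0.32 for Gzma, -0.97 ± 0.45 for Gzmb, -0.15 ± 0.30 for Prf1 and -0.06 ± 0.24 for Eomes. Young replicate 1, with 23 NK cells, was highest for Gzma, Gzmb and Nkg7, and old replicate 3 was the highest old library for the same genes and for Ccl5 and Ctsw. After reduction to 2000 UMIs per cell, Gzma was detected in 40.0%, 71.6% and 72.7% of old NK cells, against 95.7%, 82.1%, 82.4% and 71.6% of young ones.

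Naive and innate-like cells held little of the programme. In naive cells Eomes stood at 114, 25.6 and 31.0 CPM in old libraries, against 0, 0, 23.6 and 9.44 CPM in young libraries, so that the old values lay above all young ones. It was the 1 of 4 tested genes to do so, beside 8.57% of 7703 genes with that order, 4.69% with the reverse order and 0.156% that passed, and old replicate 1 stood far above the rest. Nkg7 in naive cells overlapped, at 126, 96.0 and 235 CPM in old libraries and 291, 123, 239 and 221 CPM in young ones. In Cd163l1 cells, where Il17a stood at 601.5 CPM over all libraries, Eomes and Gzmk had no UMI at either age. Ctsw stood there at 93.4, 111 and 183 CPM in old libraries and 60.2, 50.5, 0 and 80.4 CPM in young libraries. With ST2 cells added, Ctsw had a fitted log2 fold change of 1.14 ± 0.43 and was the 1 of 3 tested genes with every old library above the 3 young libraries used, beside 3.66% of 4841 genes with that order and 4.63% with the reverse order. Young replicate 3 was left out of that fit, with 15 cells, and young replicate 1 of the naive fit, with 12.

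Taking all lymphocytes of a library together, Gzmk stood at 91.6, 92.2 and 107 CPM in old libraries, against 13.7, 3.79, 1.44 and 1.18 CPM in young libraries (log2 fold change 4.98 ± 0.48). The old libraries lay close together and far above each young one. Prf1 was lower in every old library, at 18.7, 18.0 and 15.5 CPM against 44.5, 47.0, 29.9 and 31.9 CPM (-1.14 ± 0.21). Gzmk was the 1 gene of the 9 above, beside 4.29% of 10374 genes, and Prf1 the 1 below, beside 3.64%. These sums move with class sizes: CD8 cells made up 31.2 ± 12.0% of old and 6.22 ± 3.90% of young lymphocytes, and NK cells 6.81 ± 4.37% and 21.2 ± 11.7% (SD, n = 3 and 4).

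Of the Gzmk UMIs of an old library, 57.2% on average came from CD8 cells, 14.6% from undetermined T cells and 14.9% from the cycling cluster. In young libraries, with few Gzmk UMIs, 64.9% came from CD8 cells, 0% from undetermined T cells and 15.2% from the cycling cluster. The main source of Gzmk was thus the same at both ages, while that of Eomes differed. Eomes UMIs came 49.98% from CD8 cells in old libraries and 74.1% from NK cells in young libraries. Gzmb UMIs came 38.3% from CD8 and 33.2% from NK cells in old libraries, and 74.1% from NK cells in young libraries. The order of these 2 sources varied among old libraries. CD8 cells held more Gzmb UMIs than NK cells in old replicate 1 (212 against 96). They held fewer in old replicates 2 (194 against 235) and 3 (908 against 942). Gzma came on average mostly from NK cells at both ages, 66.0% in old and 82.3% in young libraries. Prf1 came 52.8% from NK cells in old libraries and 83.7% in young libraries.

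The makeup of granzyme transcripts showed the same contrast between T and NK cells. Of the UMIs of Gzmk, Gzma and Gzmb together, Gzmk made up 38.9%, 64.5% and 20.7% in CD8 cells of old replicates 1 to 3, against 5.62%, 5.74%, 83.3% and 5.00% in young replicates 1 to 4. Young replicate 3 stood apart with 6 granzyme UMIs in 9 cells. In NK cells the Gzmk share was at most 0.442% in any library.

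**Figure D4:**
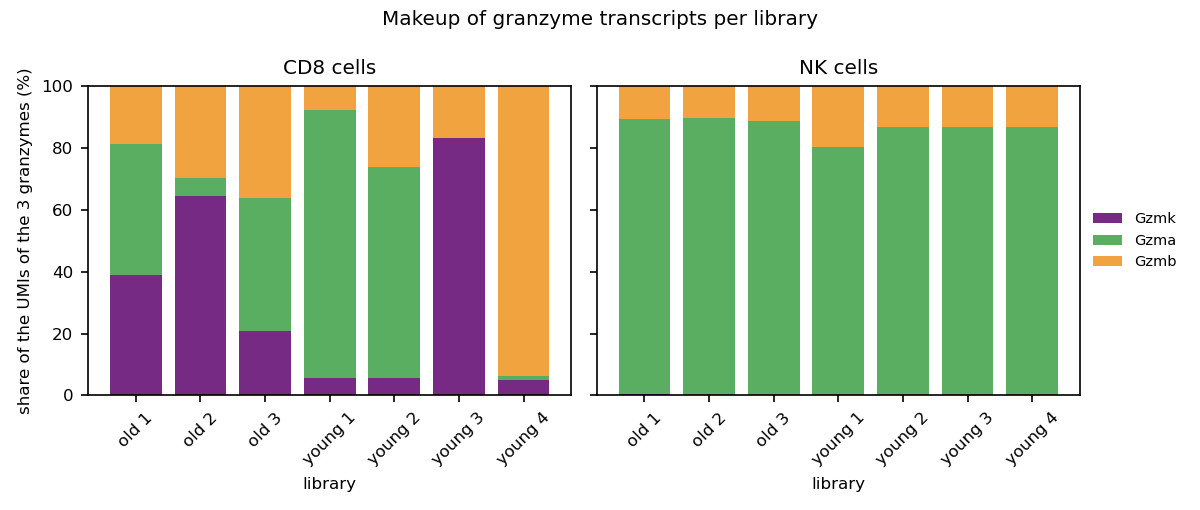
Share of the summed UMIs of Gzmk, Gzma and Gzmb in CD8 cells (left) and NK cells (right), 1 bar per library, old libraries first. Gzma makes up most of every NK bar, while Gzmk makes up 20.7 to 64.5% of the old CD8 bars.

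Detection within single cells was then compared, at 2000 UMIs per cell, with the number of cells that the product of both genes' shares would give. Among 1097 old CD8 cells, 153 had both Gzmk and Eomes against a product of 113.5, a ratio of 1.35, and the ratio was 1.34, 1.21 and 1.66 in old replicates 1 to 3. Gzmk and Gzmb were found together in 43 cells against 42.9, a ratio of 1.00, with 1.27, 1.00 and 0.738 by replicate. Detection of Gzmk therefore went with that of Eomes in each old library, and with that of Gzmb in no steady direction. Gzma and Gzmb went together most, in 33 cells against 7.44 (ratio 4.43), and above 1 in each old library (5.71, 2.48 and 2.82), though in old replicates 1 and 2 these ratios rest on 7 and 2 cells with both genes, against products of 1.23 and 0.805. Eomes had ratios below 1 with Gzma (0.407) and with Gzmb (0.421). Ratios over pooled cells also carry differences between libraries and sub-clusters.

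At this depth most Gzmk-bearing CD8 cells showed neither of the other granzymes. The matching share among CD8 cells without Gzmk is not given here. Gzmb was found with Gzmk about as often as the product of the shares gave, so no trait particular to Gzmk-bearing cells is read from this. Gzmk without Gzma or Gzmb was detected in 17.5%, 26.3% and 27.1% of old CD8 cells by replicate, and Gzmk with either in 2.68%, 4.43% and 8.79%. In young CD8 cells 3 of 72 had Gzmk, all without Gzma or Gzmb. In old CD4 cells 53 of 647 had Gzmk and 41 had Eomes, and 20 had both against a product of 3.36, a ratio of 5.96 (3.28, 8.73 and 5.34 by replicate). None of the 53 had Gzma or Gzmb, where the products were 0.164 and 0.573 cells. In NK cells Gzma and Gzmb were found together in 97 of 252 old cells (ratio 1.29) and 144 of 280 young cells (ratio 1.18), and Gzmb and Prf1 had ratios of 1.51 in old and 1.39 in young cells. The median NK cell had 5 of the 9 genes at both ages and the median CD8 cell 3 at both ages.

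**Figure D5:**
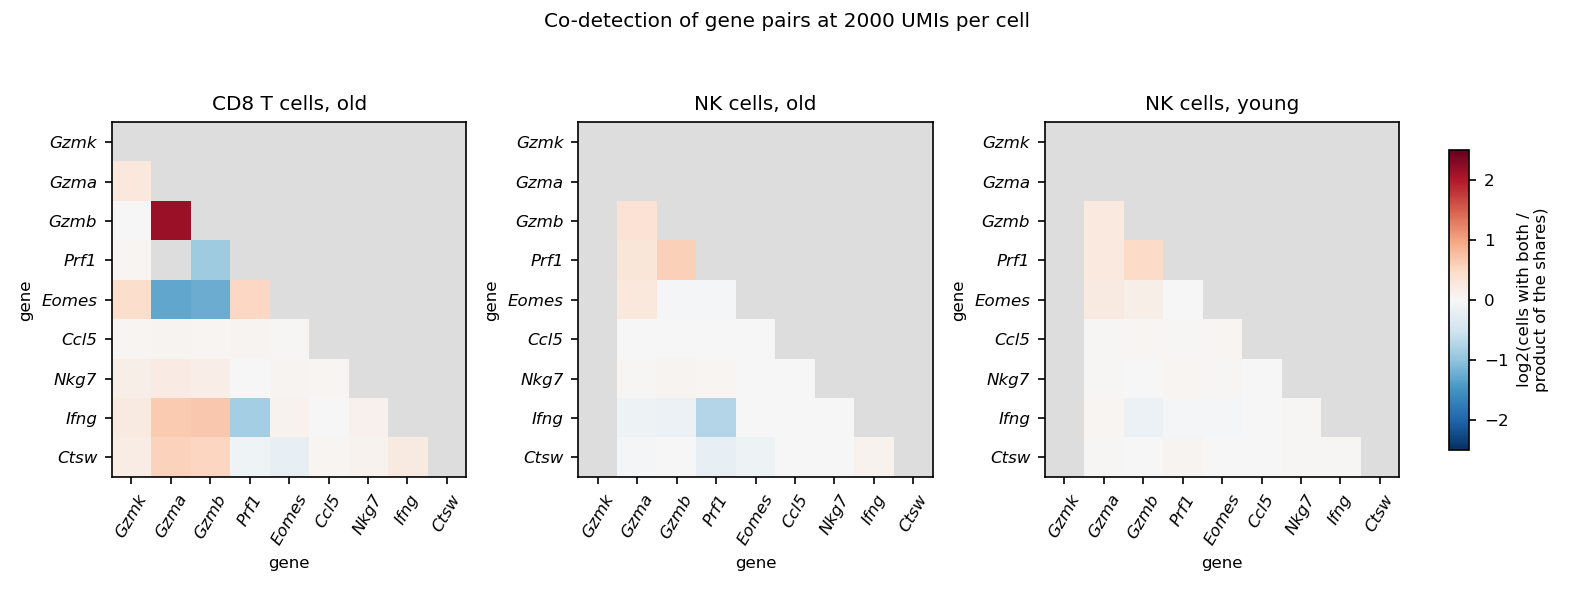
Co-detection of each pair of genes at 2000 UMIs per cell in old CD8, old NK and young NK cells, as the log2 ratio of cells with both genes to the product of the shares, with red above and blue below the product and grey where the product was under 5 cells. In old CD8 cells the Gzma and Gzmb pair is highest (ratio 4.43) and both are low with Eomes (0.407 and 0.421), while NK cells show ratios nearer 1.

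The genes that went with detection of Gzmk were tested in old CD8 cells, the group in which enough cells had it. The sub-cluster of the cells was not held fixed, so differences between sub-clusters enter the comparison. Tox, for instance, stood highest in sub-clusters 0 and 4 (305 and 139 CPM), which also held the most Gzmk. The part of sub-cluster makeup in the calls below was not tested. Gzmk-detected and Gzmk-undetected cells were summed per library at 2000 UMIs per cell, and edgeR's quasi-likelihood test with library as a block called 11 of 3806 genes (0.289%). Of the 9 genes, as a description, Eomes was higher in Gzmk-detected cells in 3 of 3 libraries, at 537 CPM in detected and 279 CPM in undetected cells on average (log2 difference 0.90 ± 0.15), and so were Ccl5 (0.50 ± 0.08) and Nkg7 (0.40 ± 0.09), while Gzmb (-0.70 ± 0.22) and Gzma (-0.35 ± 0.34) changed direction between libraries, at 0.02 and 1.15 without old replicate 3. At 1000 UMIs per cell the differences were 0.46 for Eomes, 0.22 for Ccl5 and 0.31 for Nkg7.

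Among other genes of the programme, Tox was higher in Gzmk-detected cells, at 268 against 144 CPM (log2 0.91 ± 0.19, adjusted p = 0.0291, higher in 3 of 3 libraries by edgeR's quasi-likelihood test). Ccl4, an inflammatory chemokine, was at 855 against 564 CPM (0.56 ± 0.12, adjusted p = 0.0249, higher in 3 of 3). They were 1 of 16 transcription factors and 1 of 14 cytokines, chemokines and receptors tested, and 0 of 11 granule genes, 0 of 8 killer receptors and 0 of 3 inhibitory receptors passed. Outside the lists, Rgs16, a regulator of G protein signalling (1.52 ± 0.24, adjusted p = 0.0043), Ier3, an early response gene (1.12 ± 0.20, adjusted p = 0.0065), and Sh2d1a, the adaptor SAP (0.91 ± 0.17, adjusted p = 0.0125), were higher by the same edgeR test. Satb1, a chromatin organiser of naive T cells (-1.95 ± 0.27, adjusted p = 0.00122), Plac8 (-2.21 ± 0.39, adjusted p = 0.00607) and Ly6c2 (-0.83 ± 0.15, adjusted p = 0.00607) were lower in 3 of 3 libraries by the same edgeR test, Ly6c2 being uncertain because its close copy Ly6c1 can take its reads. Tox and Ccl4 lost their calls without old replicate 1 (log2 0.56 and 0.59) and without old replicate 2 (1.25 and 0.45), and Satb1 without old replicate 1 (-1.08). Tox kept its call in 4 of 8 alternatives, Ccl4 in 4 of 8 and Satb1 in 6 of 8, with adjusted p-values up to 0.807, 0.872 and 1.00. Sh2d1a kept its call in 3 of 8 (adjusted p up to 0.859), Ier3, Plac8 and Ly6c2 in 5 of 8 each (up to 1.00, 1.00 and 0.241) and Rgs16 in 5 of 7 (up to 0.202). At 1000 UMIs per cell the log2 difference of Sh2d1a was 0.48, that of Ier3 0.41, that of Plac8 -1.18 and that of Ccl4 0.14. DESeq2 called 2 genes in all, and 6 genes passed without old replicate 1 and 4 without old replicate 2.

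Other genes of the cytotoxic programme, on 5 lists, rarely passed between the ages. In CD8 cells 0 passed of 16 granule genes, 17 transcription factors, 16 cytokines, chemokines and receptors, 12 NK and killer receptors and 5 inhibitory receptors tested, the lowest p of each list being those of Klrg1, a receptor of terminal effector cells (log2 -2.79 ± 0.58, adjusted p = 0.105), Cxcr6 (-1.66 ± 0.46, adjusted p = 0.545), Tox (1.46 ± 0.43, adjusted p = 0.713), Cst7 (1.05 ± 0.41, adjusted p = 0.985) and Lag3 (2.13 ± 0.86, adjusted p = 0.998), by edgeR. Without sub-cluster 14, where 0.123% of 7317 genes passed, Klrg1 passed (-2.70 ± 0.54, adjusted p = 0.0374, lower in every old library). In all non-naive T cells together, 13 NK and killer receptors were tested and 10 of them were lower in every old library than in every young one, beside 5.11% of all genes, with a median log2 fold change of -1.37 against -0.00 over all genes. Klrb1c, the NK1.1 receptor, passed, at 5.43 CPM in old and 76.6 CPM in young libraries (-3.68 ± 0.64, adjusted p = 0.0357), and it kept its call in 9 of 15 alternatives, losing it at 2000 UMIs per cell (adjusted p = 0.412) and without old replicate 1 or 2 or young replicate 1, 3 or 4. Over all libraries, Klrb1c stood at 43.1 CPM and Ncr1 at 33.2 CPM in undetermined cells, against 3.02 and 1.58 CPM in CD8 cells and 0.533 and 0 CPM in CD4 cells. Undetermined cells made up 17.3%, 21.5% and 29.9% of the non-naive T cells of old libraries and 40.6%, 39.5%, 51.6% and 38.2% of those of young libraries, so their share moved with these receptors, and its part in the call was not tested.

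In CD4 cells 0 genes passed, with 375 at an unadjusted p under 0.05 and 6 called by DESeq2, and the lowest p among list genes was that of Xcl1, a chemokine of cytotoxic cells (-3.34 ± 0.50, adjusted p = 0.0527 by edgeR). Over all lymphocytes, Lag3, an inhibitory receptor, was higher at 31.5 CPM in old and 5.10 CPM in young libraries (2.80 ± 0.34, adjusted p = 0.00629 by edgeR), and kept its call in 16 of 16 alternatives. It was the 1 of 7 inhibitory receptors to pass, and those 7 had a median log2 fold change of 1.196 against 0.01 over all genes. These sums move with class sizes: CD8 cells averaged 31.2% of old and 6.22% of young lymphocytes, and naive cells 15.6% and 41.4%. Within CD8 cells Lag3 did not pass, and the part of class sizes in the Lag3 call was not tested.

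Likeness was measured as Pearson's r of log2(CPM + 1) over 33 sums of 7 classes, which share libraries and depth, and is a description. Gzma was most like Klra7 (0.954), Cd244 (0.947) and Klre1 (0.945), and Gzmb most like Klre1 (0.906), all 3 being receptors of NK cells, with Klra7 uncertain because its family holds close copies. Prf1 was most like Adamts14 (0.930), Nkg7 like Cd160 (0.918), Ifng like Tbx21 (0.906), Ctsw like Lfng (0.880), Ccl5 like Xcl1 (0.863) and Eomes like Car2 (0.854). Gzmk had no such close neighbour, with Ptger4 (0.634) and Abcb1a (0.627) first. Among the 9 genes Gzma and Gzmb reached 0.895, Ccl5 and Nkg7 0.888 and Gzmk and Eomes 0.633, whereas Gzmk and Gzma reached 0.204 and Gzmk and Prf1 0.142.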

How the data were processed

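Single-cell 10x 3′ v3 RNA libraries of 3 old and 4 young mouse fat samples were analysed from the deposited UMI count matrices, which the authors made with Cell Ranger 4.0.0 on mm10, per the submitters' processing notes. Counting settings and any removal of doublets or free RNA before deposit are not given in the sources used here. Of 45514 barcodes, cells with at least 500 UMIs, 300 genes and at most 15% mitochondrial UMIs were kept, and the top Scrublet scores up to the expected rate (2.51 to 7.34% per library) were removed, leaving 37372. Cells were clustered with scanpy 1.11.5 and leidenalg 0.10.2 (2000 variable genes, 30 components, 15 neighbours, resolution 1), the 9 genes left out. Lymphocyte sub-clusters were named from marker lists under thresholds set after the clusters were seen, and non-naive T cells were divided by Cd8a, Cd8b1 and Cd4 UMIs, so that CD8 and CD4 cells differ in these by construction.

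UMIs were summed per library and class, and old and young sums compared with edgeR 4.0.16 (quasi-likelihood, TMM, filterByExpr, Benjamini-Hochberg at 0.05) in R 4.3.3, with DESeq2 1.42.0 as an alternative. The fits tested 4841 to 10374 genes. A library entered a fit with at least 20 cells of a class. For CD8 and CD4 cells this left 1 young library, so at least 10 cells were used instead, which was chosen after seeing the data, as were the fits of all non-naive T cells and without sub-cluster 14. On simulated counts the CD8 test recovered 22.7% of genes changed by 1.5 and 95.3% of genes changed by 3 on the log2 scale. These counts had the same fixed dispersion for every gene, not estimated from the libraries, so recovery is lower for genes that spread more. Shares of cells were compared after thinning each cell to 2000 UMIs, which left out 155 old and 35 young lymphocytes. Intervals are exact at 95%, and a floor is 3 counts. Since the labels do not say that libraries came from separate mice, p-values measure the spread between these libraries.

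The 9 genes and the lists of other genes were chosen with earlier results of these data known. Named genes besides the 9 are the list genes that passed or had the lowest p of their list, and, for Gzmk-detected cells, up to 5 genes outside the lists that passed with the lowest p in each direction, gene models without a name left out. Likeness names come from the 5 genes with the highest r. Positions come from GENCODE M21 and promoters from RefSeq.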

Additional observations from a re-analysis of the deposited data

Results flagged for a closer look

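In 39 sets of 4 young libraries, 13 held a library far from the other 3 by Dixon's criterion, where chance gives about 1 in 20 for continuous values. That rate does not hold for sparse counts, and in 4 of the 13 the value is a single UMI, the other 3 libraries having 0. Young replicate 1 had 11091 CPM of Gzma, 2708 CPM of Gzmb and 3526 CPM of Nkg7 in its 23 NK cells, against at most 5349, 811 and 2242 CPM in the others. In the same library Ccl5 stood at 1323 CPM in 12 naive cells, against 170 to 218 CPM, and Gzmk at 16.66 CPM (1 UMI) in 9 CD4 cells, against 0.

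Young replicate 2 had 753.3 CPM of Ifng in 38 CD8 cells, against 117 to 225 CPM in the other young libraries, and 454.8 CPM in 27 CD4 cells, against 63.9 to 99.9 CPM. It was also the library with Ifng in innate-like cells (19.98 CPM from 7 UMIs in 70 cells, others 0), and with Gzma and Gzmb in CD4 cells, at 6.688 CPM or 1 UMI each, others 0. Young replicate 4 had 804.1 CPM of Gzmb in 15 CD8 cells, against 10.7 to 139 CPM. Young replicate 3 had 6.181 CPM (1 UMI) of Gzma, others 0, and 92.71 CPM of Gzmb, against at most 10.7 CPM, in 15 innate-like cells. All 15 of these Gzmb UMIs lay in 1 cell, so the value does not describe the class. The causes were not tested, and most of these sums hold few cells.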

How the results depend on the processing

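Over 15 alternatives each, the log2 fold changes of Gzmk (1.93 to 3.96) and Eomes (2.12 to 2.84) in CD8 cells kept their direction. Counts of genes that passed moved more. In CD8 cells (5 genes) the count was 12 with DESeq2, 27 with no expression filter, 0 at 2000 UMIs per cell, 9 without sub-cluster 14, and 1 to 6 with a replicate left out. In CD4 cells (0) it was 1 with RLE size factors, 6 with DESeq2, 39 with no filter, 9 with the 9 genes kept for clustering, and 7 to 36 with a replicate left out. In naive cells (12) it was 114 with no filter, 7 at 2000 UMIs, 23 with the 9 genes kept, and 0 (without young replicate 3) to 343 (without old replicate 3). In NK cells (0) it was 1 with DESeq2, 29 with no filter and 0 to 2 with a replicate left out, and in innate-like cells (0) 1, 27 and 0. Over all lymphocytes (23) it was 114 with DESeq2, 190 with no filter, 14 at 2000 UMIs and 8 (without young replicate 4) to 88 (without old replicate 3), and in all non-naive T cells (10) 37, 157, 4 and 0 (without young replicate 4) to 47 (without old replicate 3). For Gzmk-detected cells (11) it was 2 with DESeq2, 28 with no filter, 2 at 1000 UMIs and 4 to 11 with a library left out. The causes were not tested. Same-numbered old and young libraries deviated from their group means with correlations of -0.177, 0.107 and -0.120 over all lymphocytes. In NK cells these were -0.089, 0.085 and -0.013. With so few libraries, and class sizes that move the sums, these values cannot show whether the numbers pair libraries. With a replicate block 13 genes passed in CD8, 21 in naive and 0 in NK and innate-like cells, 6 over all lymphocytes and 19 in non-naive T cells, and in CD4 cells that fit had no residual degrees of freedom. The Gzmk split was not run in CD4 cells. Of 747 recomputed log2 fold changes of the 9 genes, 660 moved within their error and 87 beyond it. Young CD8 and CD4 values are limited by their 72 and 61 cells.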

Other observations

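Gzmk was also found in dividing T cells. The cycling cluster, which was outside the classes, held 10, 16 and 9 cells with Cd8 and no Cd4 UMI in old replicates 1 to 3, and Gzmk stood there at 379, 457 and 347 CPM, beside Eomes at 402, 401 and 159 CPM. Gzmk was detected in 32 of these 35 old cells (91.4%, exact 95% interval 76.9 to 98.2%), against 2 of 9 young cells (22.2%, 2.81 to 60.01%). This was at full depth, with medians of 17160 and 13820 UMIs, and the intervals cover counting error only. By library the young cells with Gzmk were 0 of 1, 2 of 3, 0 of 3 and 0 of 2 in young replicates 1 to 4. Gzma was at 22.6, 22.3 and 8.57 CPM in the old cells. The 3 such cells of young replicate 3 and the 2 of young replicate 4 had medians of 46880 and 35540 UMIs. Ccl5 stood at 3.35 and 56.3 CPM in them, against 2610 and 2450 CPM in those of young replicates 1 and 2. Cells removed as doublets are not among them, and whether doublets remained was not tested.

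Ccl5 was not limited to lymphocytes. Dendritic cells held 1147 CPM in 407 old cells and 826 CPM in 450 young cells, and Ccl5 was detected in 15.6% and 11.1% of them at 2000 UMIs per cell, against 2.47% of old and 0.586% of young progenitors. Gzma stood at 2375 CPM in the sum of the 17 regulatory T-like cells of young replicate 3, and at most 2.12 CPM in those of the other 6 libraries. All 404 UMIs lay in 1 of the 17 cells, so the value does not describe the class. That cell was not among those removed as doublets, and whether it was still a doublet or wrongly classed was not tested.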
